A study of Homo sapiens with 48 samples.

Results

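POU3F2, POU3F3, DACH1, SIX4, EYA3, EYA4 and LHX4 are 7 developmental regulators whose transcripts were followed in HEK293T cells, a transformed human embryonic kidney line, after covalent modification of NCBP1. They were taken from the deposited gene counts by matching each Ensembl identifier to its symbol, and all 7 of 7 had a row among the 14685 genes counted. The cells carried the WT genotype label and were transfected with a plasmid for NCBP1 fused to Halo, so every group shared the fusion. In T-REX, the photocaged lipid electrophile Ht-PreHNE binds Halo, excess probe is rinsed away, and light releases HNE beside NCBP1, the partner of NCBP2 in the complex that holds the cap of nuclear transcripts. The T-REX arm received probe and light. Probe alone received Ht-PreHNE without light, and DMSO received vehicle without light. The arm named light alone was exposed to light, and the study's methods list Ht-PreHNE among its additions too. RNA was taken 3, 6 and 12 h later from 4 independent replicates of each arm, which gave 48 libraries in 12 groups.

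In the deposited tables POU3F2 is ENSG00000184486, POU3F3 ENSG00000198914, DACH1 ENSG00000276644, SIX4 ENSG00000100625, EYA3 ENSG00000158161, EYA4 ENSG00000112319 and LHX4 ENSG00000121454. POU3F2 (also known as BRN2) and POU3F3 (BRN1) are POU-domain transcription factors that bind octamer-like DNA and act in forebrain development, and POU3F3 is also needed in the developing nephron. SIX4 is a homeodomain protein of the sine oculis family. EYA3 and EYA4 are phosphatases and coactivators that bind SIX4 and its relatives rather than DNA, and DACH1 is a DNA-binding corepressor that joins the same complexes. This PAX-SIX-EYA-DACH network acts in early kidney, muscle, ear and eye. LHX4 is a LIM-homeodomain factor of pituitary and motor neuron development. In a bulk RNA measurement, fewer cells with a transcript and less transcript per cell cannot be told apart.

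The starts of POU3F2, POU3F3, DACH1 and SIX4 are printed because POU3F2 and DACH1 met the rule for differential expression used below, and because POU3F3 and SIX4 are their closest relatives or partners among the 7 genes. Each run of 300 bases ends 50 bases into the transcript and is written 5′ to 3′ on the strand of the gene, from RefSeq on GRCh38.p14. Capitals mark matches, on either strand, to GGGCGG (the GC box bound by SP1-like factors) and CCAAT (the box bound by NF-Y).
POU3F2 (chr6:98834324-98834623, plus strand): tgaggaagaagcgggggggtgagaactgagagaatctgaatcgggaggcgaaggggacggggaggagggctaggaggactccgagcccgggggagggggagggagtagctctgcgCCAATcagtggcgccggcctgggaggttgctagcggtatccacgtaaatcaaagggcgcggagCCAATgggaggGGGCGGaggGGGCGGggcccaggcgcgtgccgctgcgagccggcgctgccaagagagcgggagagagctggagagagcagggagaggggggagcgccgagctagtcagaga
POU3F3 (chr2:104853865-104854164, plus strand): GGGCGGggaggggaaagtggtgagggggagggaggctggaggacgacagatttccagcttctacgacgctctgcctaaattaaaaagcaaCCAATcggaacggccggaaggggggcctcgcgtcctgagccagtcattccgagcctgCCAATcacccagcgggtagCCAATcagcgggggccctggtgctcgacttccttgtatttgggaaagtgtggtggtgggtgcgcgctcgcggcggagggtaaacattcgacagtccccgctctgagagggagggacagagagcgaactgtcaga
DACH1 (chr13:71867155-71867454, minus strand): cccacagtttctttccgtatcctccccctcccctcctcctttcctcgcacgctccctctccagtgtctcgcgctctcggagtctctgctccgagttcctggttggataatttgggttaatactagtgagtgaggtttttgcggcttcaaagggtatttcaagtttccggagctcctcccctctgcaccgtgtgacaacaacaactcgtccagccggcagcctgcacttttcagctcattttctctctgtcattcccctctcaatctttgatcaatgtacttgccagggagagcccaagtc
SIX4 (chr14:60724302-60724601, minus strand): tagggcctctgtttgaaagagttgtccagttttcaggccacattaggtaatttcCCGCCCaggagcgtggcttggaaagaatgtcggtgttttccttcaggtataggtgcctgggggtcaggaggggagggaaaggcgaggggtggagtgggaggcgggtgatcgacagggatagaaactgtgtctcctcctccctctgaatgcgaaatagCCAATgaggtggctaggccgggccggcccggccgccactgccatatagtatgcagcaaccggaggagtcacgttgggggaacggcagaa
POU3F2 held 2 matches to GGGCGG and 2 to CCAAT, POU3F3 held 1 and 3, and SIX4 held 1 and 1. DACH1 held neither. Among all 35116 RefSeq promoter windows of this length, 45% held GGGCGG and 34.6% held CCAAT. The POU octamer ATGCAAAT (1.77% of windows), the MEF3 core TCAGGTT bound by SIX4 and its relatives (3.37%) and TATAAA (11.5%) were searched in the same way, and none of the 7 genes had a match. GC content was 68.3% for POU3F2, 61.3% for POU3F3, 53% for DACH1 and 57.7% for SIX4, beside a median of 58.7% over all windows. The remaining windows of EYA3, EYA4 and LHX4 had GC contents of 61.7%, 71.7% and 72.7%, with 2, 3 and 4 GGGCGG matches. POU3F2 and DACH1 thus had start regions of unlike composition.

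Total counts per library lay between 23952455 and 37099535, with a median of 29405598.5. Counts of the 7 genes ranged from 136 for LHX4 to 7394 for EYA3 in a single library, so none was near the detection limit. Of 10 markers expected in this line, 7 had a row, led by VIM at 432 to 683 CPM (counts scaled to library size). CDH2 (61 to 104 CPM), NEFL (33.1 to 102 CPM) and NEFM (22 to 47.4 CPM) followed. KRT18 (7.01 to 13.7 CPM), KRT8 (4.38 to 10.7 CPM) and CDH1 (1.3 to 3.53 CPM) were low, and KRT19, EPCAM and PAX2 had no row. Of 20 markers of other cell types, COL1A1 alone had a row, at 2.09 to 6.18 CPM, and the other 19 were not analysed here. None of these 8 markers met the rule for differential expression used below. NCBP1 itself reached 31200 to 91300 CPM, and its counts do not separate the plasmid from the endogenous gene. Relative to DMSO, NCBP1 in the T-REX arm was higher by 0.5 on the log2 scale at 3 h (adjusted p = 0.029) and 0.73 at 12 h (adjusted p = 0.00252), and relative to light alone by 0.8 at 6 h (adjusted p = 0.0214), by the edgeR test described below. At 3 h its mean was 75100 ± 14900 CPM under T-REX (SD, n = 4) against 53200 ± 6440 CPM with DMSO. At 6 h the means were 72100 CPM under T-REX, 41300 CPM with light alone, 82100 CPM with probe alone and 53200 CPM with DMSO. At 12 h they were 58800, 41400, 60600 and 35400 CPM in the same order.

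Levels were compared between genes as CPM per kilobase of exon, with exon lengths from GENCODE 29. EYA3 stood first, at a median of 30.7 CPM per kilobase over the 48 libraries (range 26.4 to 35.2). DACH1 followed at 18.4, POU3F2 at 17.3 and SIX4 at 16.8 CPM per kilobase. These 3 neighbours were not cleanly ordered, since DACH1 exceeded POU3F2 in 31 of 48 libraries and POU3F2 exceeded SIX4 in 30 of 48. EYA4 came next at 8.71 CPM per kilobase, below SIX4 in 48 of 48 libraries. POU3F3 had 6.32 CPM per kilobase and lay below EYA4 in 45 of 48 libraries. LHX4 was the scarcest, at 1.31 CPM per kilobase and with 136 to 368 counts per library.

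**Figure D1:**
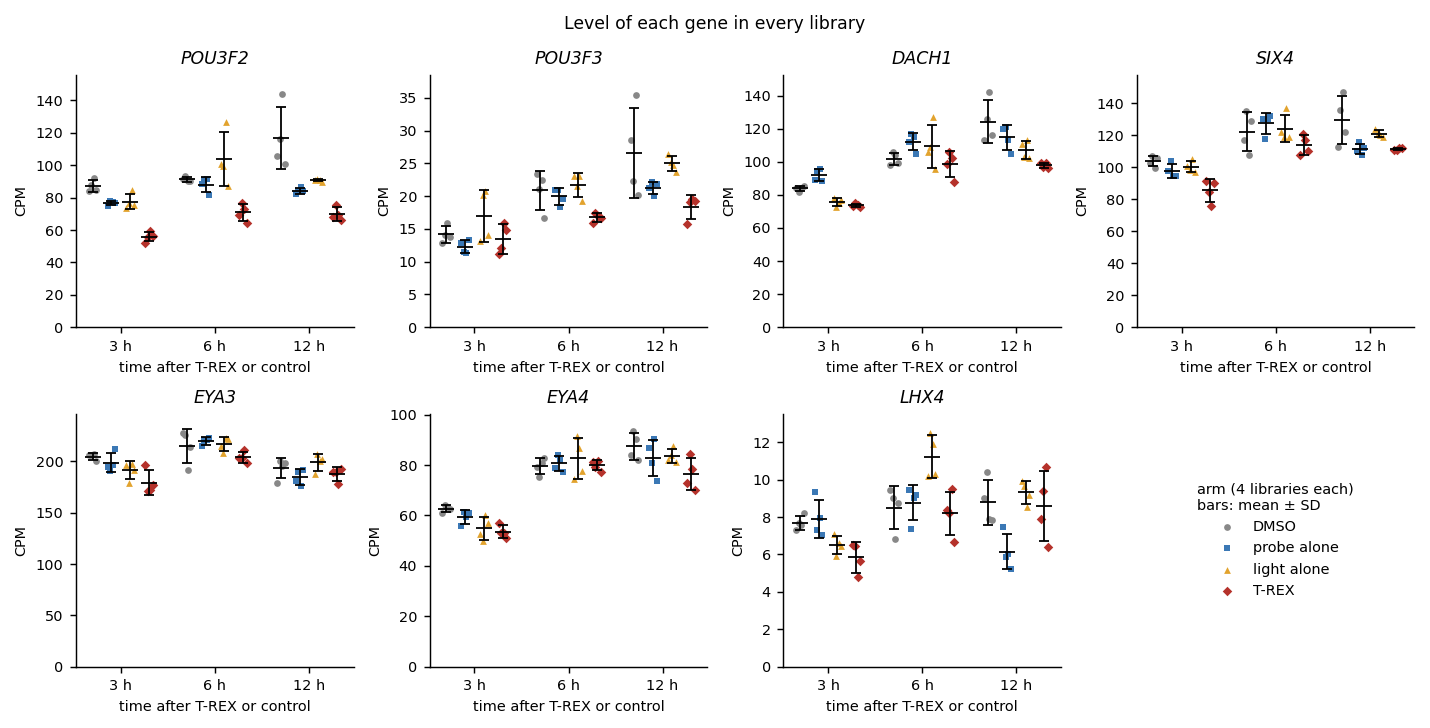
CPM (vertical axes, from 0) of each of the 7 genes in all 48 libraries, grouped by time (horizontal axes) and arm (colours and marker shapes), with bars for the mean ± SD of 4 libraries. POU3F2 under T-REX sits between 52.3 and 76.5 CPM, below every control library of the same time point.

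Whether modification of NCBP1 altered these transcripts was asked by testing T-REX against each of the 3 controls at each time. edgeR's quasi-likelihood test was fitted to the 16 libraries of a time point, p-values were adjusted over all 14685 genes (Benjamini-Hochberg), and an adjusted p up to 0.05 counted as a call. The term SDE, taken from the study, marks genes called differentially expressed by a rule over controls. Calls had to point one way relative to 2 or more of the 3 controls. POU3F2 was SDE and lower at 3, 6 and 12 h. DACH1 was SDE and lower at 3 h, and no other member met the rule. That made 2 of 7 members at 3 h, 1 at 6 h and 1 at 12 h, beside 0.769%, 0.0817% and 0.912% of all genes that were SDE and lower at those times. edgeR called no member higher under T-REX in any of the 9 comparisons. With the 2 deposited factors of unwanted variation as covariates, 6 members were SDE at 3 h, 3 at 6 h and 4 at 12 h, POU3F2 and DACH1 among them at each time. In that fit 8.57%, 1.44% and 5.36% of all genes were SDE and lower, and LHX4 at 12 h was called 0.48 higher on the log2 scale than with probe alone (adjusted p = 0.0261). By DESeq2, POU3F2, DACH1, SIX4 and LHX4 were SDE at 3 h, POU3F2 at 6 h, and POU3F2 and POU3F3 at 12 h, beside 2.82%, 0.279% and 1.69% of genes.

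POU3F2 was the member with the clearest difference. At 3 h its 4 T-REX libraries held 52.3, 55.7, 59.2 and 56.4 CPM. Light alone gave 73.5, 76.6, 84.7 and 75.7 CPM, probe alone gave 74.7, 78.2, 77.1 and 76.7 CPM, and DMSO gave 84.1, 88, 92.3 and 84.8 CPM. No T-REX library overlapped any control library. The fall was 28% against light alone (log2 fold change -0.47, SE 0.05, adjusted p = 0.00016), 27.1% against probe alone (-0.46, SE 0.05, adjusted p = 0.000254) and 36% against DMSO (-0.64, SE 0.05, adjusted p = 1.14e-06). Among all genes, 53, 38 and 14 had a lower log2 fold change than POU3F2 in these 3 comparisons. POU3F2 stayed called in these 3 comparisons on leaving out each of the 16 libraries in turn.

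At 6 h POU3F2 measured 69.3, 76.5, 73.3 and 64.5 CPM under T-REX. The controls were 101, 99.7, 127 and 87.5 CPM with light alone, 88.4, 90.9, 91.3 and 81.8 CPM with probe alone, and 91.3, 93.5, 90.1 and 90.4 CPM with DMSO. Again the T-REX libraries lay below all 12 control libraries, although 1 light alone library stood well above its group. POU3F2 fell by 0.55 on the log2 scale relative to light alone (SE 0.08, adjusted p = 0.000785) and by 0.37 against DMSO (SE 0.08, adjusted p = 0.0398). Against probe alone the log2 fold change was -0.31 (SE 0.08), with an adjusted p of 0.182. The call against DMSO lay close to the threshold and was lost on leaving out any of 12 of the 16 libraries (adjusted p = 0.0504 to 0.137), with log2 fold changes of -0.4 to -0.32. It held without DMSO replicate 4, probe alone replicate 4, light alone replicate 3 or light alone replicate 4.

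At 12 h the T-REX libraries held 68.3, 75.6, 69.6 and 65.9 CPM of POU3F2. Light alone gave 91.2, 91.3, 91 and 89.8 CPM, probe alone 82, 84, 86.6 and 84.3 CPM, and DMSO 106, 116, 144 and 101 CPM. The controls differed among themselves here, with DMSO highest and most variable. At 12 h DMSO replicate 3 was the highest of its group for POU3F2 (144 CPM), POU3F3 (35.5 CPM), DACH1 (142 CPM) and SIX4 (147 CPM), but not for EYA3, EYA4 or LHX4. The falls of those 4 genes against DMSO at 12 h thus share 1 high library. On leaving out each library in turn, POU3F2 against DMSO ran from -0.8 to -0.62 on the log2 scale and stayed called. POU3F2 fell by 40% against DMSO (log2 fold change -0.74, SE 0.08, adjusted p = 2.07e-06) and by 23.1% against light alone (-0.38, SE 0.08, adjusted p = 0.00749). Against probe alone the groups did not overlap, but the log2 fold change of -0.27 (SE 0.08) had an adjusted p of 0.116. With probe alone POU3F2 itself fell by 27.7% relative to DMSO (log2 fold change -0.47, adjusted p = 0.00158), and light alone measured -0.36 relative to DMSO (adjusted p = 0.231).

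**Figure D2:**
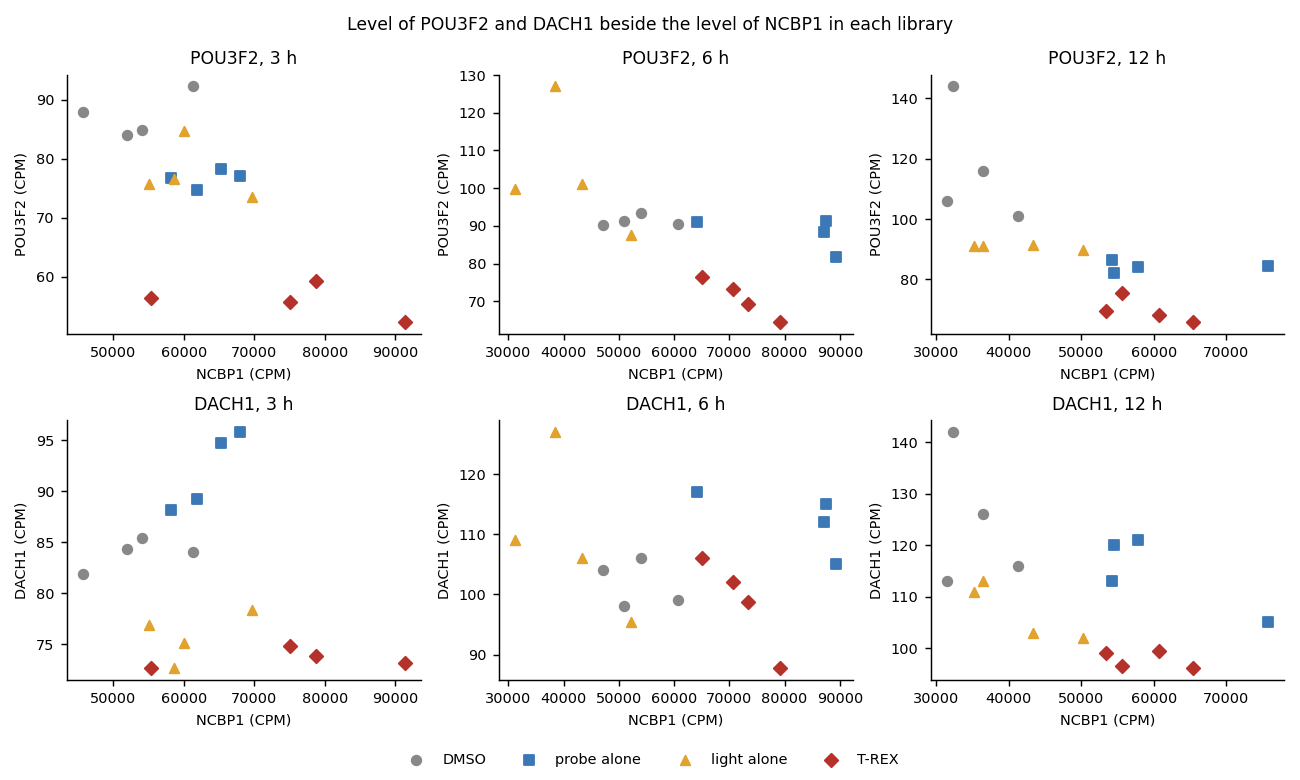
CPM of POU3F2 (top row) and DACH1 (bottom row) on the vertical axes against NCBP1 in CPM on the horizontal axes, 1 point per library, at 3, 6 and 12 h. The axes do not start at 0. At 6 and 12 h the probe alone libraries reach NCBP1 levels as high as T-REX while their POU3F2 stays higher.

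NCBP1 moved with several of these contrasts, so its level is set beside them. At 3 h the T-REX libraries had 91300, 75000, 78800 and 55400 CPM of NCBP1, and the control libraries 45700 to 69700 CPM. T-REX replicates 1 to 3 thus lay above all 12 control libraries in NCBP1 and replicate 4 within their range, while all 4 lay below them in POU3F2. At 6 h probe alone had more NCBP1 than T-REX (82100 ± 11900 against 72100 ± 5860 CPM) and more POU3F2 (88.1 ± 4.37 against 70.9 ± 5.17 CPM). At 12 h NCBP1 was 60600 ± 10200 CPM with probe alone and 58800 ± 5360 CPM under T-REX, where POU3F2 was 84.2 ± 1.9 and 69.9 ± 4.12 CPM. With log2 NCBP1 as a covariate, a setting chosen after the data were seen, POU3F2 stayed called against 3 of 3 controls at 3 h (log2 fold changes -0.46, -0.45 and -0.63 in the order light alone, probe alone, DMSO). It was called against no control at 6 or 12 h. The log2 fold changes were then -0.32, -0.36 and -0.25 at 6 h, and -0.27, -0.28 and -0.59 at 12 h, with adjusted p-values of 0.0614 to 0.915. The part of NCBP1 level in these differences was not tested beyond this fit.

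POU3F3 is the paralog of POU3F2 and was the scarcer of the pair. At 3 h it measured 11.1, 12.1, 15.9 and 14.9 CPM under T-REX, and its groups overlapped with all 3 controls. At 12 h the T-REX libraries held 15.7, 19.1, 19.5 and 19.2 CPM. DMSO gave 28.5, 22.3, 35.5 and 20.1 CPM at 12 h, light alone 26.4, 25.2, 24.8 and 23.7 CPM, and probe alone 21.3, 22.1, 20 and 21.8 CPM. T-REX was below each control at 12 h, but DMSO spread widely, and its lowest library (20.1 CPM) lay close to the highest T-REX library (19.5 CPM). POU3F3 fell by 30.9% against DMSO (log2 fold change -0.53, SE 0.12, adjusted p = 0.00709). Against light alone the log2 fold change was -0.45 (SE 0.12, adjusted p = 0.0678) and against probe alone -0.21 (SE 0.12, adjusted p = 0.556). At 6 h its log2 fold changes ran from -0.37 to -0.25 and edgeR called none, while DESeq2 called the one against light alone (-0.38, adjusted p = 0.0211). The sources used here do not say how reads shared by POU3F2 and POU3F3 were assigned, and their POU domains are closely similar.

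DACH1 at 3 h was the other SDE member. T-REX gave 73.2, 74.8, 73.9 and 72.7 CPM, probe alone 89.2, 94.7, 95.8 and 88.2 CPM, and DMSO 84.3, 81.9, 84 and 85.4 CPM. Light alone gave 78.4, 72.7, 75.1 and 76.9 CPM, which overlapped T-REX. DACH1 fell by 19.9% against probe alone (log2 fold change -0.32, SE 0.05, adjusted p = 0.00205) and by 12.2% relative to DMSO (-0.19, SE 0.05, adjusted p = 0.0197). Against light alone the log2 fold change was -0.04 (SE 0.05, adjusted p = 0.75). With light alone DACH1 fell by 17.6% relative to probe alone (log2 fold change -0.28, adjusted p = 0.01). At 3 h the T-REX and light alone libraries were thus all below the probe alone and DMSO libraries, although light alone relative to DMSO was not called (-0.15, adjusted p = 0.434). At 6 h light alone measured 0.1 relative to DMSO (adjusted p = 0.516). A part of light in these levels was not tested. The call against DMSO was lost without DMSO replicate 1 or 4 (log2 fold changes -0.19 and -0.18, adjusted p = 0.0586 and 0.0651). DACH1 was no longer SDE in fits of only the 2 arms compared, where its log2 fold changes for probe alone and DMSO as the control were -0.32 and -0.19 (adjusted p = 0.0728 and 0.0803). With NCBP1 as a covariate it stayed called against probe alone (-0.34, adjusted p = 0.0058) and not against DMSO (-0.23, adjusted p = 0.0874).

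At 6 h DACH1 was called against no control, with log2 fold changes of -0.15, -0.19 and -0.05 in the order light alone, probe alone, DMSO. At 12 h it held 99.5, 96.6, 99.1 and 96.2 CPM under T-REX, and 113, 126, 142 and 116 CPM with DMSO. Light alone gave 111, 103, 113 and 102 CPM and probe alone 120, 121, 113 and 105 CPM. Every T-REX library was below every control library at 12 h, by narrow margins against light alone. DACH1 fell by 21.2% against DMSO (log2 fold change -0.34, SE 0.06, adjusted p = 0.00125). The log2 fold changes of -0.14 against light alone (adjusted p = 0.359) and -0.23 against probe alone (adjusted p = 0.107) did not pass. Leaving out DMSO replicate 3 or probe alone replicate 4 made DACH1 SDE at 12 h. In fits of only the 2 arms compared, DACH1 at 12 h was called lower than 3 of 3 controls.

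SIX4 at 3 h measured 91.3, 84.9, 76 and 90.5 CPM under T-REX. DMSO gave 103, 107, 99.6 and 106 CPM, light alone 101, 98.4, 105 and 97.4 CPM, and probe alone 97.9, 104, 94.8 and 94.7 CPM. All 4 T-REX libraries were below all 12 control libraries. SIX4 fell by 17.7% against DMSO (log2 fold change -0.28, SE 0.06, adjusted p = 0.00587). The log2 fold changes against light alone (-0.23, adjusted p = 0.0739) and probe alone (-0.19, adjusted p = 0.0796) missed the threshold by edgeR and passed it by DESeq2 (adjusted p = 0.0164 and 0.0338). Without T-REX replicate 1, SIX4 and EYA3 became SDE at 3 h. At 12 h SIX4 measured 111, 111, 112 and 112 CPM under T-REX and 113, 136, 147 and 122 CPM with DMSO. Probe alone (110, 116, 108 and 112 CPM) overlapped T-REX, and light alone (124, 121, 120 and 119 CPM) lay above it. SIX4 fell by 13.8% relative to DMSO (log2 fold change -0.21, adjusted p = 0.0215), a call lost without DMSO replicate 2 or 3 or T-REX replicate 1. Under probe alone it also fell by 13.8% (adjusted p = 0.0361). At 6 h none of its 3 comparisons was called.

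EYA3 and EYA4, the coactivators, had smaller differences. EYA3 at 3 h was 197, 171, 172 and 177 CPM under T-REX and 206, 206, 207 and 200 CPM with DMSO. It fell by 12.4% against DMSO (log2 fold change -0.19, SE 0.05, adjusted p = 0.0283), with -0.1 for light alone and -0.15 for probe alone as the control, neither called. EYA4 at 3 h was 57.1, 53.1, 53.1 and 51 CPM under T-REX and 60.8, 64.2, 63.2 and 62.5 CPM with DMSO. It fell by 14.5% against DMSO (log2 fold change -0.23, SE 0.06, adjusted p = 0.0294), while light alone (52.6, 49.7, 60.1 and 57.2 CPM) overlapped T-REX. Both calls were lost without DMSO replicate 1, 2 or 4 or T-REX replicate 2 or 4, and that of EYA3 also without T-REX replicate 3 (adjusted p up to 0.0832 for EYA3 and 0.0942 for EYA4). At 6 and 12 h edgeR called no comparison of T-REX with a control for either gene, and the log2 fold changes ranged from -0.19 to 0.02. DESeq2 called EYA4 lower than DMSO at 12 h (-0.2, adjusted p = 0.0428). EYA4 is overlapped by antisense genes in GENCODE 29 that were not analysed here.

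LHX4 was called by edgeR in no comparison of T-REX with a control. DESeq2 called it lower than probe alone and DMSO at 3 h (log2 fold changes -0.45 and -0.4, adjusted p = 0.0374 and 0.045), and lower than light alone at 6 h (-0.45, adjusted p = 0.0484). At 3 h it measured 6.51, 6.44, 4.77 and 5.66 CPM under T-REX against 7.29, 7.68, 7.6 and 8.21 CPM with DMSO and 9.35, 7.3, 7.94 and 7.04 CPM with probe alone. These groups did not overlap, but at such counts the log2 fold changes of -0.4 (SE 0.13, adjusted p = 0.0609) and -0.44 (SE 0.12, adjusted p = 0.0787) were not called. At 12 h the order against probe alone was turned: T-REX held 7.88, 9.42, 10.7 and 6.39 CPM and probe alone 7.47, 5.84, 6.04 and 5.23 CPM. The ranges overlapped in that comparison, whose log2 fold change was 0.48 (SE 0.15, adjusted p = 0.158). Under probe alone LHX4 fell by 30.1% relative to DMSO at 12 h (log2 fold change -0.52, SE 0.15, adjusted p = 0.0416). LHX4 overlaps ACBD6 on the opposite strand in GENCODE 29, and whether reads were counted by strand is not given in the sources used here, so that their reads cannot be told apart. ACBD6 had log2 fold changes from -0.02 to 0.19 across the 9 comparisons with T-REX, none called.

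**Figure D3:**
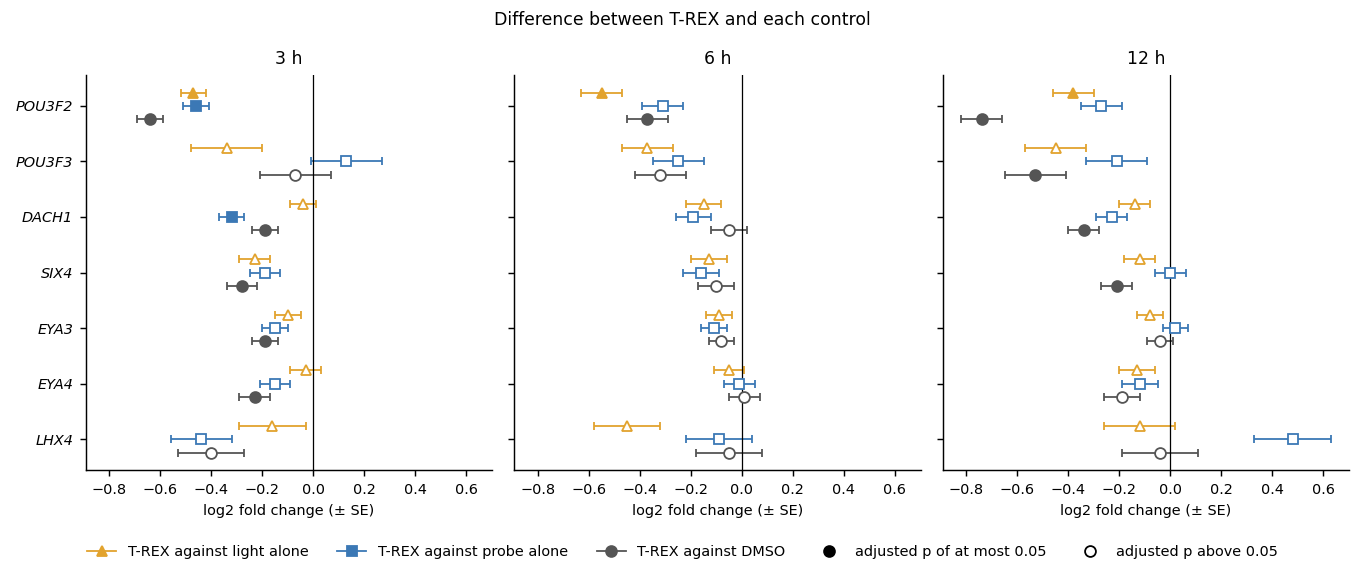
Log2 fold change of T-REX against each control (horizontal axes, bars are ± SE) for the 7 genes at 3, 6 and 12 h, with filled markers for an adjusted p of at most 0.05. POU3F2 lies at -0.27 or below throughout, and LHX4 against probe alone at 12 h is the point farthest to the right, at 0.48.

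Against DMSO, 5 of 7 members were called lower at 3 h, 1 of 7 at 6 h and 4 of 7 at 12 h, beside 4.54%, 0.238% and 6.79% of all genes. Against probe alone the counts were 2, 0 and 0 members, beside 0.81%, 0.0885% and 0.504% of genes. Against light alone the count was 1 member, POU3F2, at each time, beside 0.116%, 0.0953% and 0.79% of genes. Where edgeR called none of the 7 against probe alone, at 6 and 12 h, DESeq2 called 0 as well. There 5 members at 6 h and 3 at 12 h had an unadjusted edgeR p under 0.05, in either direction. Those at 12 h were POU3F2 and DACH1, which were lower, and LHX4, which was higher (log2 fold change 0.48). No share of all genes is given for these unadjusted counts. The median log2 fold change of the 7 genes at 3 h was -0.16, -0.19 and -0.23 for light alone, probe alone and DMSO as the control, beside 0, 0.02 and 0.03 over all genes. At 6 h the medians were -0.15, -0.16 and -0.08, and at 12 h -0.13, -0.12 and -0.21, with all-gene medians of 0 to 0.01 in size. The 3 comparisons of a time point share their T-REX libraries, so their values are not independent of one another.

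**Figure D4:**
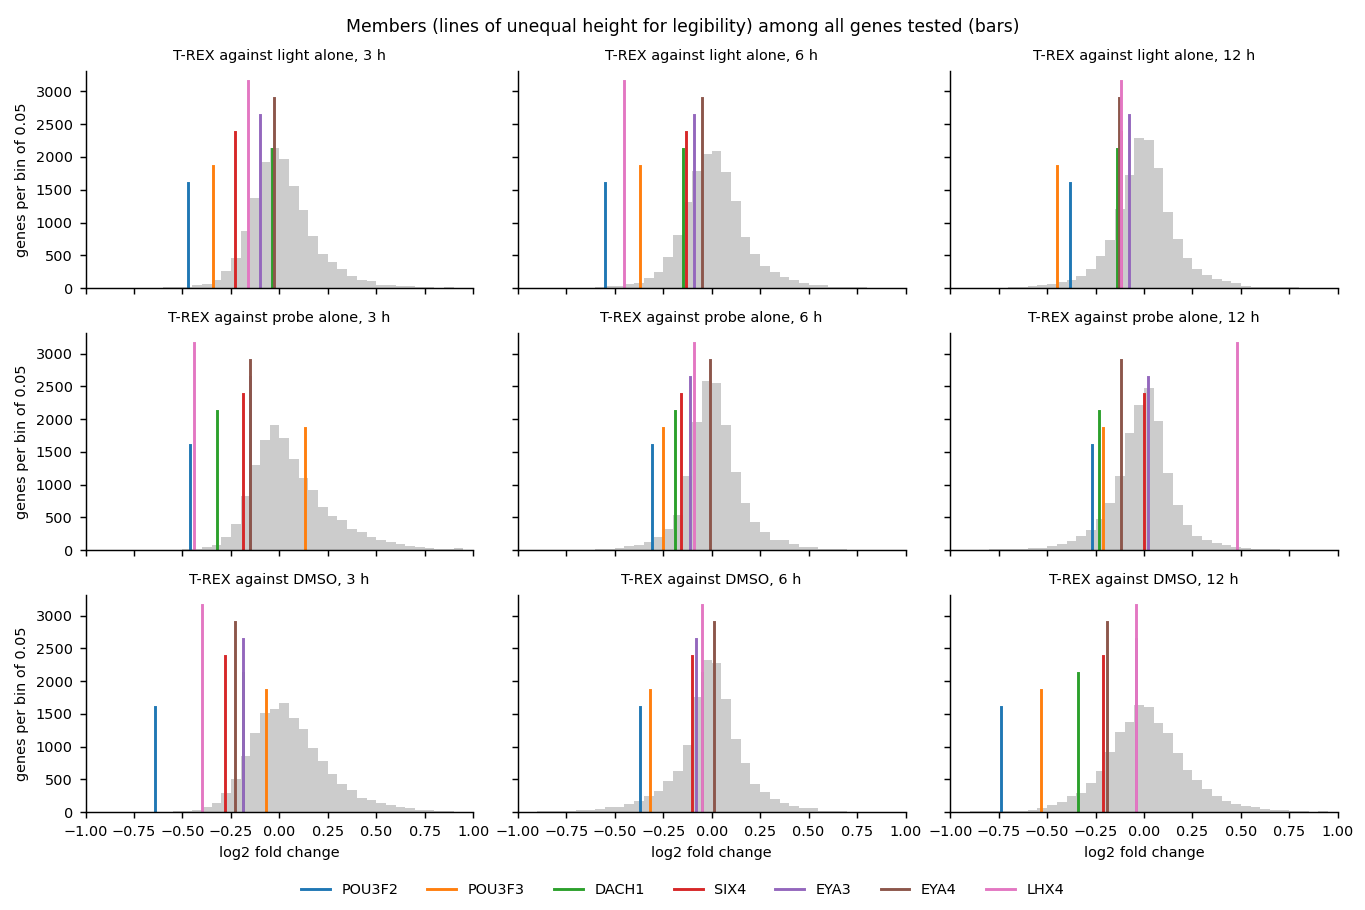
Distribution of log2 fold changes over all 14685 genes (grey bars, genes per bin of 0.05) with the 7 members as coloured lines, whose unequal heights only keep them legible, for T-REX against each control (rows) at 3, 6 and 12 h (columns). POU3F2 lies in the far lower tail at 3 h, where 14 genes have a lower value against DMSO, and most other members lie left of the centre.

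The controls were compared with each other in the same fits. At 3 h DACH1 was called between light alone and probe alone (1 of 7 members, beside 0.232% of genes), and none of the 7 between light alone and DMSO or probe alone and DMSO (0.00681% of genes in each). At 6 h no member was called in any of the 3 comparisons, beside 0.00681% of genes for light alone against DMSO, 0.0272% for probe alone against DMSO and 0.0613% for light alone against probe alone. At 12 h POU3F2, SIX4 and LHX4 were lower with probe alone than with DMSO (3 of 7, beside 5.11% of genes). No member was called between light alone and DMSO (0.0136% of genes) or light alone and probe alone (0.415%) at 12 h. In the 7 comparisons without an edgeR call, 1 to 3 members had an unadjusted p under 0.05. DESeq2 called 1 member in each of the latter 2 comparisons at 12 h and 0 in the other 5. No share of all genes is given for these unadjusted counts or DESeq2 calls, so they cannot be set against other genes.

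The T-REX effect was compared between time points by interaction terms in a fit of all 48 libraries, in which 63 tests concerned these genes. LHX4 gave the single call. Its difference between T-REX and probe alone rose by 0.94 on the log2 scale from 3 to 12 h (SE 0.19, adjusted p = 0.0334), beside 0.0681% of genes called for that term. Its means were 5.84 and 7.91 CPM under T-REX and probe alone at 3 h, and 8.61 and 6.14 CPM at 12 h. Against probe alone, 0% of genes were called for 6 h minus 3 h and 0% for 12 h minus 6 h. Against light alone the shares were 0%, 0.0204% and 0% for 6 h minus 3 h, 12 h minus 3 h and 12 h minus 6 h, and against DMSO they were 0.0136%, 0.00681% and 0%. In all, 13 of the 63 tests had an unadjusted p under 0.05, and DESeq2 called 0 of the 58 to which it gave an adjusted p. No share of all genes is given for that unadjusted count. The 63 tests also share libraries between controls and between time points, so they are not independent of one another. POU3F2 against DMSO differed most between 6 and 12 h (log2 difference -0.37, SE 0.1, adjusted p = 0.159), so no change of its T-REX effect with time was shown.

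Most members rose with time in each arm, except with probe alone at 12 h, where 3 of 7 rose and 2 fell. From 3 to 6 h, 4 of 7 members rose with DMSO, 7 with light alone, 5 with probe alone and 6 under T-REX, beside 9.05%, 14.3%, 11% and 13.5% of genes called higher. From 3 to 12 h, 5, 6, 3 and 6 members rose in the same order of arms, beside 20.4%, 20.4%, 21.3% and 21.1% of genes. EYA4 and DACH1 rose in all 8 of these comparisons, EYA4 by 0.34 to 0.59 and DACH1 by 0.25 to 0.53 on the log2 scale. POU3F3 rose most with DMSO from 3 to 12 h (0.86, SE 0.13, adjusted p = 3.54e-07). POU3F2 rose under T-REX by 0.35 at 6 h (adjusted p = 0.000457) and 0.28 at 12 h (adjusted p = 0.00216), from the lowest starting level of the 4 arms. EYA3 fell from 3 to 12 h with DMSO (-0.13, adjusted p = 0.0275) and probe alone (-0.17, adjusted p = 0.00441), and LHX4 fell with probe alone (-0.43, adjusted p = 0.00951). The share of all genes called lower over time is not given here. The time points were deposited as separate tables, and time and any separate handling of a time point cannot be told apart.

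Genes related to the 7 were described from lists, with members left out of each count. None of 6 other POU genes and none of 13 other LIM homeodomain genes and cofactors was SDE at any time. Against DMSO, 1 of those 6 POU genes and 2 of the 13 LIM genes were called lower at 3 h, beside 4.54% of genes. At 6 h the counts were 0 and 0, beside 0.238% of genes. At 12 h they were 0 and 1, beside 6.79% of genes. Of 18 kidney development regulators, 5 were called lower than DMSO at 12 h, beside 6.79% of all genes (median log2 fold change of the list -0.19, beside 0 for all genes). Against light alone and probe alone at 12 h, 1 and 0 of the 18 were called lower, beside 0.79% and 0.504% of genes. At 3 and 6 h the count was 1 against DMSO, beside 4.54% and 0.238% of genes. It was 0 against light alone (0.116% and 0.0953% of genes) and against probe alone (0.81% and 0.0885%).

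Of 8 SOX factors, which often pair with POU proteins on DNA, 2 were SDE and lower at 12 h, beside 0.912% of all genes. SOX5, a regulator of cartilage and neuron development, had log2 fold changes of -0.57 relative to light alone (adjusted p = 0.0374) and -0.74 relative to DMSO (adjusted p = 0.00151). Relative to probe alone SOX5 measured -0.48 and was not called (adjusted p = 0.128). SOX9, which acts in kidney and cartilage, had -0.59 relative to probe alone (adjusted p = 0.00245) and -0.49 relative to DMSO (adjusted p = 0.00235). Relative to light alone SOX9 measured -0.23 and was not called (adjusted p = 0.303). Among 21 corepressors and partners of the network, 1 was SDE and higher, and the share of all genes SDE and higher is not given here. This gene, SMAD3, a TGF-beta signal transducer, rose at 12 h by 0.26 relative to light alone (adjusted p = 0.0336) and 0.27 relative to DMSO (adjusted p = 0.00765). Its log2 fold change was -0.03 relative to probe alone, which itself was higher than DMSO by 0.31 (adjusted p = 0.00867). Of 7 reported targets of the members, CCND1, the cyclin D1 gene, was SDE and lower at 12 h, beside 0.912% of all genes. Its log2 fold changes were -0.52 relative to light alone (adjusted p = 0.0124) and -0.45 relative to DMSO (adjusted p = 0.0122). Relative to probe alone CCND1 measured -0.29 and was not called (adjusted p = 0.32). Median log2 fold changes of the 7 targets lay between -0.14 and 0.01 in the 9 comparisons.

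The nearest counted genes on each side of the 7, with ACBD6, were 15 genes in all. In 135 comparisons with T-REX they gave 6 calls lower and 1 higher. Over all genes the share called lower ran from 0.0885% to 6.79% by comparison, and the share called higher is not given here. FBXL4, 29068 bases from POU3F2 in GENCODE 29, had log2 fold changes from -0.1 to 0.11 and no call. PANTR1, the divergent noncoding transcript that starts 2328 bases from POU3F3, measured -0.53, -0.47 and -0.36 at 12 h in the order light alone, probe alone, DMSO, with adjusted p-values of 0.113, 0.242 and 0.165. PCDH9, a protocadherin gene 4207521 bases from DACH1, had -0.19 relative to DMSO at 3 h (adjusted p = 0.0258) and -0.33 relative to light alone at 6 h (adjusted p = 0.0382).

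Likeness of pattern was described by Pearson's r over the 12 arm and time means, each time point centred on its own mean over the 4 arms. The points share libraries and normalization, so no p is given. Of 10133 genes with a mean log2 CPM above 3, SESN3, DYNLL1 and TMPO were most like POU3F2 (r = 0.98 each). SESN3, a stress-responsive sestrin, had log2 fold changes at 3 h of -0.28 relative to light alone, -0.27 relative to probe alone and -0.35 relative to DMSO. EIF2AK3 (-0.98), XYLB (-0.98) and ZNF197 (-0.96) were least like it. EIF2AK3, which encodes the PERK kinase of the unfolded protein response, had 0.2, 0.17 and 0.25 at 3 h relative to the same controls. SESN3 and EIF2AK3 were picked by r over means of these same libraries, so their fold changes are not separate evidence. Fold changes of the other genes named for likeness are not given here. For DACH1 the highest r values were those of ADGRL3 (0.97), CPOX (0.96) and HMMR (0.96), and the lowest those of GTF2IRD1 (-0.97), LETM2 (-0.97) and AOC2 (-0.96). Among the 7 genes, POU3F2 was most like SIX4 (r = 0.91) and least like LHX4 (0.56), and POU3F3 and DACH1 shared little (0.24).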

How the data were processed

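RNA of transfected HEK293T cells was sequenced by the authors (stranded libraries after ribosomal RNA depletion, paired-end reads, bcl2fastq per the labels). The authors deposited counts per gene that were not normalized, log2 CPM, and 2 factors of unwanted variation (RUV) per library, a score whose making is not stated. The study's reporting summary lists TopHat, Cufflinks and cutadapt among its software. Whether these made the counts, how reads were counted and the genome build are not given in the sources used here. Counts were tested in R 4.3.3 with edgeR 4.0.16 (TMM, filterByExpr, robust glmQLFit, quasi-likelihood F-test). The filter removed 0 of 14685 genes. CPM values use the TMM factors of their time point. SE is the size of the log2 fold change over the square root of F. DESeq2 1.42.0 and limma 3.58.1 served as alternatives, beside RLE factors, other filters, covariates, a replicate block, fits of 2 arms and leaving out each library, and figures were drawn in Python. Counts of 14685 genes were also simulated, with changes placed only in genes with a mean of at least 100 counts. Of these changes, T-REX against DMSO at 3 h recovered 55% of those of 0.4 and 86% of those of 0.8 on the log2 scale. Deposited RUV-transformed values were not used. The members and gene lists were chosen with earlier results of these data known. The result of 1 listed gene is not reported here. Named from the lists were genes that met the SDE rule (at most 6 a list), neighbours, and the 3 genes most and least like POU3F2 and DACH1.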

Additional observations from a re-analysis of the deposited data

Results flagged for a closer look

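Among the 84 groups of 4 libraries (7 genes, 12 groups), 3 held a library far from the other 3, where chance gives about 1 in 20 groups. POU3F3 under T-REX at 12 h was lowest in replicate 1, at 15.7 CPM beside 19.1 to 19.5 CPM, and the gap was 0.879 of the range. SIX4 with probe alone at 6 h was lowest in replicate 2, at 118 CPM beside 130 to 132 CPM (0.862 of the range). EYA3 with DMSO at 3 h was lowest in replicate 4, at 200 CPM beside 206 to 207 CPM (0.875 of the range). The difference of LHX4 between T-REX and probe alone was larger at 12 h than at 3 h by 0.94 on the log2 scale (SE 0.19, edgeR adjusted p = 0.0334), the single difference between time points that passed the test. Against light alone and DMSO the same term was 0.03 and 0.36 and was not called. LHX4 was lower in each of the 4 T-REX libraries than in each of the 4 probe alone libraries at 3 h, and the groups overlapped at 12 h.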

How the results depend on the processing

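At 3, 6 and 12 h, 2, 1 and 1 members were SDE, and RLE factors, no filter on low counts, a mean of at least 100 counts and limma-trend gave the same counts. With the 2 RUV factors as covariates the numbers were 6, 3 and 4. With DESeq2 they were 4 at 3 h and 2 at 12 h, with fits of only the 2 arms compared 1 and 2, and with NCBP1 as a covariate 1, 0 and 0 at 3, 6 and 12 h. Leaving out 1 library gave 1 to 4 at 3 h, 0 to 1 at 6 h and 1 to 3 at 12 h. POU3F3 became SDE at 12 h without DMSO replicate 3 or 4. With the replicate number as a block the counts were 2, 1 and 1, and the block changed no other call than EYA4 against DMSO at 12 h, which became called. Deviations of same-numbered libraries correlated at -0.644 to 0.58 at 3 h, -0.538 to 0.474 at 6 h and -0.348 to 0.234 at 12 h. All 6 pairs of replicate 3 at 3 h (0.148 to 0.576) and all 4 pairs of probe alone and T-REX at 6 h (0.0985 to 0.474) were positive, but signs were mixed over the arms, so no pairing was assumed. The LHX4 term for 12 h minus 3 h was 0.93 with the block (adjusted p = 0.0392). DESeq2 gave the same 0.94 an unadjusted p of 2.37e-06 and no adjusted p, since its filter on low counts left LHX4 out. Directions turned only for estimates that were not called. With NCBP1 as a covariate these were POU3F3 against DMSO at 3 h (0.09), DACH1 against light alone (0.09) and DMSO (0.08) at 6 h and light alone at 12 h (0.01), EYA4 against light alone at 6 h (0.16) and 12 h (0.03) and DMSO at 12 h (0.04), and LHX4 against light alone (0.14) and DMSO (0.34) at 12 h. SIX4 against probe alone at 12 h was 2e-04 with limma-trend, and ran from -0.02 to 0.02 on leaving out 1 library. The other such ranges through 0 were -0.16 to 0.01 (POU3F3 against DMSO, 3 h), -0.08 to 0.0046 (DACH1 against DMSO, 6 h), -0.09 to 0.0014, -0.02 to 0.03 and -0.03 to 0.01 (EYA4 against light alone at 3 h, DMSO and probe alone at 6 h), and -0.15 to 0.03 and -0.16 to 0.08 (LHX4 against DMSO at 6 and 12 h). The causes of these shifts were not tested. LHX4 had the fewest counts, 136 to 368 per library, and SEs of up to 0.15.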
